A study of Mus musculus with 10 samples.

Results

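A set of 6 genes of the voltage-gated sodium channel family was followed in RNA-seq of the mouse prefrontal cortex (PFC), *Scn3b* among them. They are the alpha subunit genes *Scn1a*, *Scn3a* and *Scn8a* and the beta subunit genes *Scn2b*, *Scn3b* and *Scn4b*, 6 of the 22000 protein-coding genes in the count table, and all 6 passed the filter on low counts that left 14344 genes. The 6 were chosen by family and with the difference between knockout (KO) and wild-type (WT) mice already known, in which *Scn3b* had stood out. Their KO and WT values are therefore given as a description without a test, and the 6 are tested only in comparisons other than this contrast. The pathway genes tested between KO and WT come from lists that were set with earlier results of these data known.

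A voltage-gated sodium channel carries the inward current of the action potential. A large alpha subunit forms the pore and the voltage sensor, and smaller beta subunits with an extracellular immunoglobulin-type fold change its gating, its delivery to the membrane and its contacts with other proteins. In the cortex *Scn1a* is known for fast-spiking inhibitory interneurons, *Scn8a* for the axon initial segment and nodes of Ranvier, *Scn3a* for the embryonic and early postnatal brain, and *Scn4b* for strong expression in the striatum.

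The KO group was 5 mice homozygous for *lu*, a nonsense point mutation of the transcription factor gene *Zbtb16* on the B6.C3-*Zbtb16*lu/J background, and the WT group was 5 mice. All were 7 weeks old and labelled male, and 1 stranded, poly(A)-selected library was made per PFC. The mutation is present in every cell from conception, and the KO mice may carry C3 DNA linked to *Zbtb16* on chromosome 9. The sources used here state littermates of heterozygous crosses for the behavioural tests and not for these libraries.

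Counts per library ran from 30220122 to 51231439, so that the detection floor of 3 counts was 0.058 to 0.0996 CPM (counts scaled to the library size, with TMM normalization). *Zbtb16* transcripts were at 78.9 ± 7.23 CPM (SD, n = 5) in WT and 47.4 ± 4.95 CPM (SD, n = 5) in KO mice, a log2 fold change of -0.67 (SE 0.06, edgeR quasi-likelihood test, adjusted p = 2.8e-05). KO mouse 3, labelled male, had 1 count over 4 Y-linked genes against 4376 to 8182 in the other mice, and the fitted differences between groups were also computed without it. Without KO mouse 3 the log2 fold change of *Zbtb16* was -0.62. The RNA integrity number (RIN) was 8.1 to 8.3 in KO mice 3 and 5 and WT mice 3 and 4, and 9.5 to 9.8 in the other 6. Markers of cortical pyramidal neurons summed to 5527 to 6221 CPM in WT and 5913 to 6828 CPM in KO mice, and 12 markers of striatal medium spiny neurons summed to 372 to 713 CPM in WT and 414 to 597 CPM in KO mice.

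All positions are those of GRCm38 with the Gencode M21 annotation. *Scn3a* (chr2:65457118-65567627, minus strand) and *Scn1a* (chr2:66270778-66440840, minus strand) lie in a cluster of alpha subunit genes that also holds *Scn2a1*, *Scn9a* and *Scn7a*. *Scn8a* is at chr15:100869858-101045938 on the plus strand. The 3 beta subunit genes share chromosome 9 and the plus strand with each other, *Scn3b* at chr9:40269217-40291618, *Scn2b* at chr9:45117782-45130070 and *Scn4b* at chr9:45138395-45154152. No exon of the 6 genes overlapped an exon of another annotated gene, so the strand setting of the counting, which is not stated, does not divide their reads with a neighbour.

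Only 8.32 kb separates the end of *Scn2b* from the start of *Scn4b*, and this pair held the steadiest and the most variable member of the 6. Their RefSeq promoter windows (GRCm38.p6, 250 bases before and 50 after the RefSeq start, which for both genes differs from the Gencode start) are shown to compare neighbours, with each CG dinucleotide in capitals. Of the 6 genes, 4 had a window in the table.
Scn2b, chr9:45117626-45117925, plus strand: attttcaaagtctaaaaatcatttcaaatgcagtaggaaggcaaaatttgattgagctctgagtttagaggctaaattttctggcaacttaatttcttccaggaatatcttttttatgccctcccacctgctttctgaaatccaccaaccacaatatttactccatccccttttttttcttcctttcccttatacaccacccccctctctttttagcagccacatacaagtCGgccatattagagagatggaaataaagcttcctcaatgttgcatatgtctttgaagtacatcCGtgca
Scn4b, chr9:45138374-45138673, plus strand: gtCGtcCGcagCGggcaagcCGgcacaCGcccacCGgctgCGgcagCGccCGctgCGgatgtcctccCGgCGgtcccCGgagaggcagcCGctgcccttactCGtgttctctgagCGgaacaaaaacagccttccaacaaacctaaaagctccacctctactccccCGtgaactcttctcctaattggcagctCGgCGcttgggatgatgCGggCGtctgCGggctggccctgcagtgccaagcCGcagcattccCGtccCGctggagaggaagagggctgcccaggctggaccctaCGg
The *Scn2b* window was AT-rich, with 38.3% G and C and 2 CG pairs, and 7.45% of the 32851 promoter windows in the table had a lower share of G and C. The *Scn4b* window had 66.3% G and C and 26 CG pairs, and 84.4% of windows lay below it in G and C. The median window had 52.7% G and C and 7 CG pairs. None of the windows of *Scn1a*, *Scn8a*, *Scn2b* and *Scn4b* held a GC box (GGGCGG), which 35.7% of all windows held on either strand. Nor did they hold a TATA box (TATAAA, 13.6% of windows), an E-box (CACGTG, 7.15%) or a cAMP response element (TGACGTCA, 1.79%).

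Of the 3 beta subunit genes, *Scn3b* was higher in every KO mouse than in every WT mouse. *Scn3b*, whose product associates with the pore without a disulfide bond, was at 90.0, 88.8, 107.6, 100.4 and 98.9 CPM in WT mice 1 to 5. In KO mice 1 to 5 *Scn3b* was at 110.2, 121.7, 128.5, 119.2 and 127.1 CPM. The gap between the genotypes was narrow, between WT mouse 3 and KO mouse 1. The mean level of *Scn3b* was 97.2 ± 7.80 CPM (SD, n = 5) in WT and 121.4 ± 7.29 CPM (SD, n = 5) in KO mice, 24.9% higher in KO. The fitted log2 fold change of *Scn3b* was 0.26 (SE 0.05), and 0.23 without KO mouse 3. *Scn3b* was the 1 member among the 121 genes past the threshold of 0.05 in the fit of genotype (0.844% of the genes tested), and the 1 member without overlap between genotypes (1.58% of the genes tested). Nothing is read from these counts, since this contrast chose the genes. In bulk tissue, more cells of a type and more RNA per cell cannot be told apart.

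The log2 difference of the *Scn3b* means, KO minus WT, was 0.30 in the 4 mice of low RIN and 0.34 in the 6 of high RIN. As every KO mouse lay above every WT mouse, any split of these mice gives a difference above 0. Over 20 other ways to fit the contrast the log2 fold change of *Scn3b* ran from 0.20 to 0.34. These fits reuse the values by which *Scn3b* was chosen, so no support is drawn from their sign. The membership of *Scn3b* in the set past the threshold, which is part of how it was chosen, was lost without KO mouse 3, KO mouse 4, WT mouse 4 or WT mouse 5, with a striatal marker score in the model, and in the mice of high RIN alone, and no support is drawn from the fits that kept it.

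*Scn4b*, which encodes a beta subunit that is disulfide-linked to the pore and is known for its part in resurgent current, was the most variable member. It was at 177.2, 173.8, 127.2, 143.5 and 240.8 CPM in WT mice 1 to 5 and at 126.3, 108.7, 134.8, 180.9 and 124.2 CPM in KO mice 1 to 5. The genotypes overlapped, WT mouse 5 stood highest, and KO mouse 4 reached the upper WT values. The mean of *Scn4b* was 172.5 ± 43.5 CPM (SD, n = 5) in WT and 135.0 ± 27.3 CPM (SD, n = 5) in KO mice, with a fitted log2 fold change of -0.23 (SE 0.08). The log2 difference of the *Scn4b* means, KO minus WT, was -0.06 in the 4 mice of low RIN and -0.53 in the 6 of high RIN. A test of whether these differed (edgeR, interaction term) did not pass (adjusted p = 0.996). Over the 20 other fits the fitted log2 fold change of *Scn4b* ran from -0.51, in mice of high RIN alone, to -0.02, without WT mouse 5. It was -0.49 with a striatal marker score in the model, -0.30 without WT mouse 2 and -0.32 without KO mouse 3. Of the 20 fits, *Scn4b* passed the threshold in 1, without WT mouse 2, and nothing is read from that call. WT mouse 5 also had the highest striatal marker score of the 10 (0.84 on a log2 scale centred on all mice, against -0.51 to 0.54 in the others). Over the 10 mice the relation of *Scn4b* to this score did not pass, as given with the marker scores.

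*Scn2b*, the other disulfide-linked beta subunit, barely moved. It was at 349.4, 350.3, 341.7, 338.8 and 342.1 CPM in WT mice 1 to 5 and at 332.8, 310.8, 346.0, 345.0 and 342.5 CPM in KO mice 1 to 5. Apart from KO mice 1 and 2, the KO values lay inside the WT range. The mean of *Scn2b* was 344.5 ± 5.09 CPM (SD, n = 5) in WT and 335.4 ± 14.7 CPM (SD, n = 5) in KO mice, with a log2 fold change of -0.02 (SE 0.03).

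**Figure D1:**
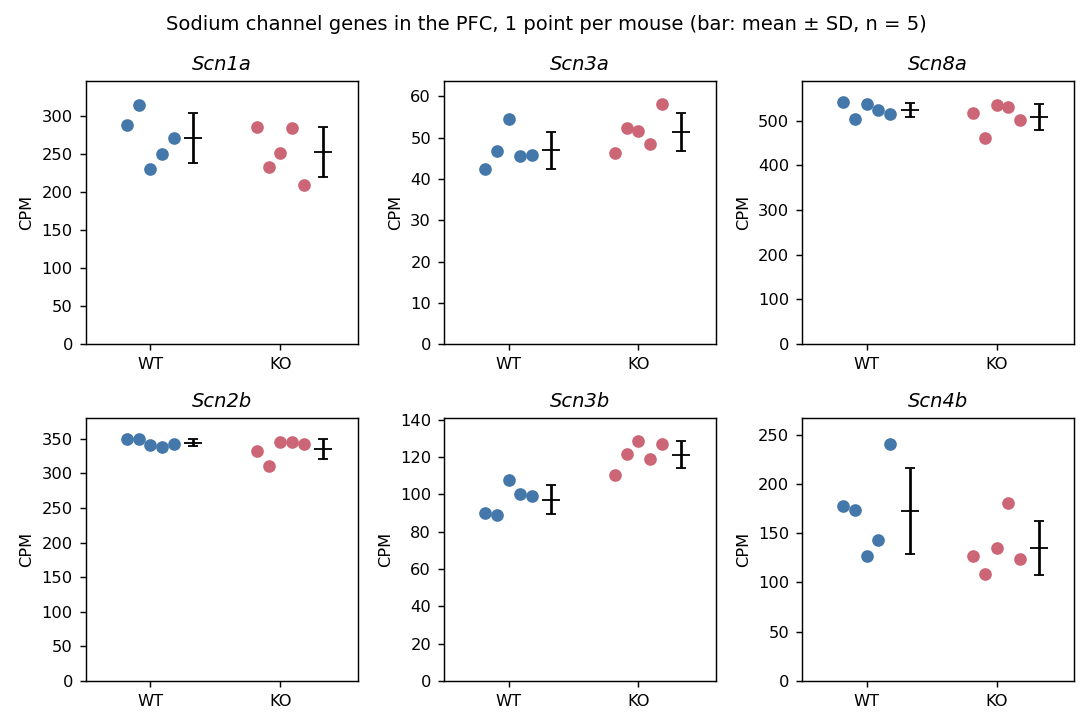
Level of the 6 sodium channel genes in CPM (vertical axes, from 0) in WT and KO mice, 1 point per mouse in order of replicate number from left to right, with the mean ± SD (n = 5) beside each group. *Scn3b* is the panel without overlap, with WT at 88.8 to 107.6 and KO at 110.2 to 128.5 CPM, and *Scn4b* has the widest spread, with WT mouse 5 at 240.8 CPM.

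Among the alpha subunit genes no member separated the genotypes. *Scn1a*, which encodes the pore Nav1.1, was at 287.2, 314.5, 229.9, 250.0 and 270.8 CPM in WT mice 1 to 5 and at 285.1, 233.0, 251.5, 283.3 and 208.9 CPM in KO mice 1 to 5. The ranges overlapped over most of their length, and KO mouse 5 was the lowest and WT mouse 2 the highest. The mean of *Scn1a* was 6.71% lower in KO (252.3 ± 32.7 against 270.5 ± 32.7 CPM, SD, n = 5 each). The fitted log2 fold change was 0.04 (SE 0.03) with surrogate variables, and its sign depended on the fit, above 0 in 14 of 20 alternatives and as low as -0.12.

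*Scn3a*, which encodes Nav1.3, was at 42.3, 46.8, 54.5, 45.4 and 45.8 CPM in WT mice 1 to 5 and at 46.2, 52.2, 51.7, 48.3 and 58.2 CPM in KO mice 1 to 5. WT mouse 3 lay above all KO mice but KO mouse 5. The mean of *Scn3a* was 9.33% higher in KO mice, 51.3 ± 4.56 against 47.0 ± 4.52 CPM (SD, n = 5 each), with a fitted log2 fold change of 0.05 (SE 0.06).

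*Scn8a*, which encodes Nav1.6, was at 540.9, 503.3, 537.1, 524.0 and 514.8 CPM in WT mice 1 to 5 and at 516.6, 462.1, 534.8, 530.2 and 500.5 CPM in KO mice 1 to 5. KO mouse 2 was the lowest, as it was for *Scn2b*. The log2 fold change of *Scn8a* was -0.02 (SE 0.03). Without KO mouse 3 the log2 fold changes of *Scn1a*, *Scn3a*, *Scn8a* and *Scn2b* were 0.04, 0.04, -0.04 and -0.04.

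The 6 genes differed in how far mice of the same genotype lay apart. The SD of log2(CPM + 1) within genotypes was 0.048 for *Scn2b* and 0.067 for *Scn8a*, with 4.55% and 16.1% of the tested genes steadier than them. It was 0.102 for *Scn3b*, 0.128 for *Scn3a* and 0.182 for *Scn1a*, beside a median of 0.117 over all tested genes. The SD of *Scn4b* was 0.312, and 96.9% of tested genes were steadier. Between the lowest and the highest of the 10 mice, *Scn4b* differed 2.21-fold, *Scn1a* 1.51-fold and *Scn2b* 1.13-fold.

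Levels of different genes were compared per kilobase of merged exon, within each mouse. In WT mice *Scn2b* had the highest level of the 6, 74.0 CPM per kb, and *Scn3a*, the subunit known for the immature brain, the lowest, 3.77 CPM per kb. *Scn4b* (34.6 CPM per kb), *Scn8a* (33.2), *Scn1a* (24.3) and *Scn3b* (17.8) lay between them. Over the 10 mice the order was *Scn2b*, *Scn8a*, *Scn4b*, *Scn1a*, *Scn3b* and *Scn3a*, and each of the 5 neighbouring pairs was tested by an exact two-sided sign-flip permutation test with Benjamini-Hochberg adjustment over the 5 pairs.

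*Scn2b* was above *Scn8a* by 1.16 on the log2 scale (SD 0.04, 10 of 10 mice, exact p = 0.00195, the smallest that 10 mice allow, adjusted p = 0.00488), and by 0.69 with the length of the longest transcript in place of merged exons. *Scn3b* was above *Scn3a* by 2.34 (SD 0.13, 10 of 10 mice, exact p = 0.00195, adjusted p = 0.00488). *Scn4b* was above *Scn1a* by 0.37 (SD 0.27, 9 of 10 mice, exact adjusted p = 0.00651), but with the longest transcript the difference was -0.04 (exact adjusted p = 0.662). *Scn8a* and *Scn4b* did not differ beyond their spread (0.12, SD 0.33, 6 of 10 mice, exact adjusted p = 0.252), although they did with the longest transcript (0.59, exact adjusted p = 0.00651) and without WT mouse 5 (0.20, exact adjusted p = 0.0488). Nor did *Scn1a* and *Scn3b* (0.23, SD 0.34, 7 of 10 mice, exact adjusted p = 0.083), unless KO mouse 5 was left out (0.29, exact adjusted p = 0.0293). These tests pool the genotypes, in which the differences were not alike. *Scn1a* was above *Scn3b* in every WT mouse, but below it in KO mice 2, 3 and 5, with KO means of 22.6 and 22.2 CPM per kb. *Scn8a* and *Scn4b* had KO means of 32.3 and 27.1 CPM per kb, against 33.2 and 34.6 in WT mice. The KO values of *Scn3b* used here had a part in its choice.

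**Figure D2:**
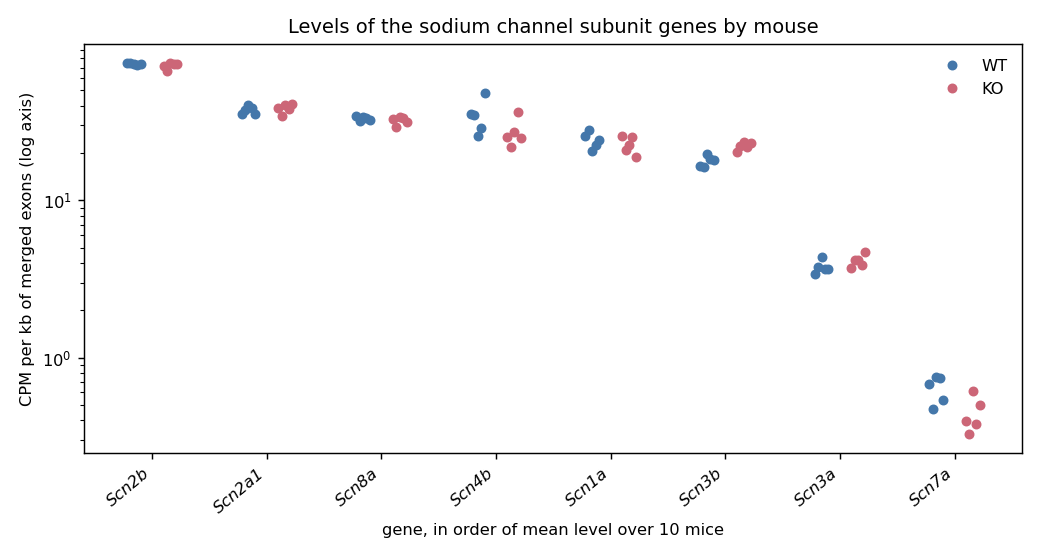
Level of the members and of *Scn2a1* and *Scn7a* in CPM per kb of merged exons (vertical log axis), 1 point per mouse, WT left and KO right within each gene, in order of the mean level over the 10 mice. *Scn2b* stands highest, *Scn3a* is at 3.77 CPM per kb in WT and *Scn7a* is lowest.

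The alpha subunit members were also placed beside *Scn2a1* (the gene of Nav1.2, a main pore of excitatory neurons), and the beta subunit members beside each other. Of the summed level per kb of the 3 beta subunit members, *Scn3b* was the smallest share, 14.1 ± 1.73% (SD, n = 5) in WT and 18.4 ± 1.46% (SD, n = 5) in KO mice, with ranges of 12.9 to 16.6% and 16.5 to 20.1% that overlapped. *Scn2b* held 58.7% and *Scn4b* 27.1% of it in WT mice. With the longest transcript as length, an alternative added after the values were seen, *Scn3b* held 17.8% and *Scn4b* 26.0% in WT mice, but *Scn3b* held 22.8% and *Scn4b* 20.98% in KO mice, with *Scn3b* the higher in 4 of 5. Of the alpha level, *Scn2a1* held 37.9% in WT mice, *Scn8a* 33.7%, *Scn1a* 24.6% and *Scn3a* 3.82%.

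Mice of low and high RIN gave a contrast that had no part in choosing the genes. With genotype in the model, 48 genes (0.335%) passed edgeR's threshold for low against high RIN, and 0 of the 6 members did, while 4 of the 6 had an unadjusted p under 0.05 (10.8% of all tested genes did). *Scn1a* was at 208.9 to 251.5 CPM in the 4 mice of low RIN and at 233.0 to 314.5 CPM in the 6 of high RIN, a log2 difference of -0.25 (SE 0.07, adjusted p = 0.148). DESeq2 called *Scn1a* (adjusted p = 0.0293), and edgeR called it without KO mouse 2 (log2 difference -0.29, adjusted p = 0.0446). Without KO mouse 3 the log2 difference was -0.31 (adjusted p = 0.0801), and over all 13 alternatives the adjusted p of *Scn1a* ran from 0.0293 to 0.457.

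*Scn3b* and *Scn3a* differed the other way. *Scn3b* was higher in low RIN by 0.15 on the log2 scale (SE 0.05, adjusted p = 0.214 in edgeR), with classes of 100.4 to 128.5 and 88.8 to 121.7 CPM that overlapped. *Scn3a* gave 0.16 (SE 0.06, adjusted p = 0.333) and *Scn4b* -0.32 (SE 0.13, adjusted p = 0.389). *Scn8a* and *Scn2b* gave 0.04 and 0.02, with adjusted p-values of 0.832 and 0.921. Without KO mouse 3 these differences were 0.15 for *Scn3b*, 0.19 for *Scn3a*, -0.39 for *Scn4b*, 0.02 for *Scn8a* and 0.00 for *Scn2b*.

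The classes overlapped for all 6 members (2.5% of tested genes were without overlap). The 9 markers listed for fast-spiking interneurons were *Pvalb*, *Syt2*, *Kcnc1*, *Kcnc2*, *Kcns3*, *Erbb4*, *Lhx6*, *Gad1* and *Gad2*. The general GABA neuron genes *Gad1* and *Gad2* had means of 367.4 and 171.9 CPM in WT mice, so their sum is not one of fast-spiking cells alone. Of the 9, 2 passed with RIN. *Syt2* fell by 0.50 and *Pvalb* by 0.39 on the log2 scale in low RIN (adjusted p = 0.0146 and 0.0388), and the summed level of the 9 was 1027 to 1184 CPM in low and 1145 to 1267 CPM in high RIN. Their part in the *Scn1a* values was not tested.

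**Figure D3:**
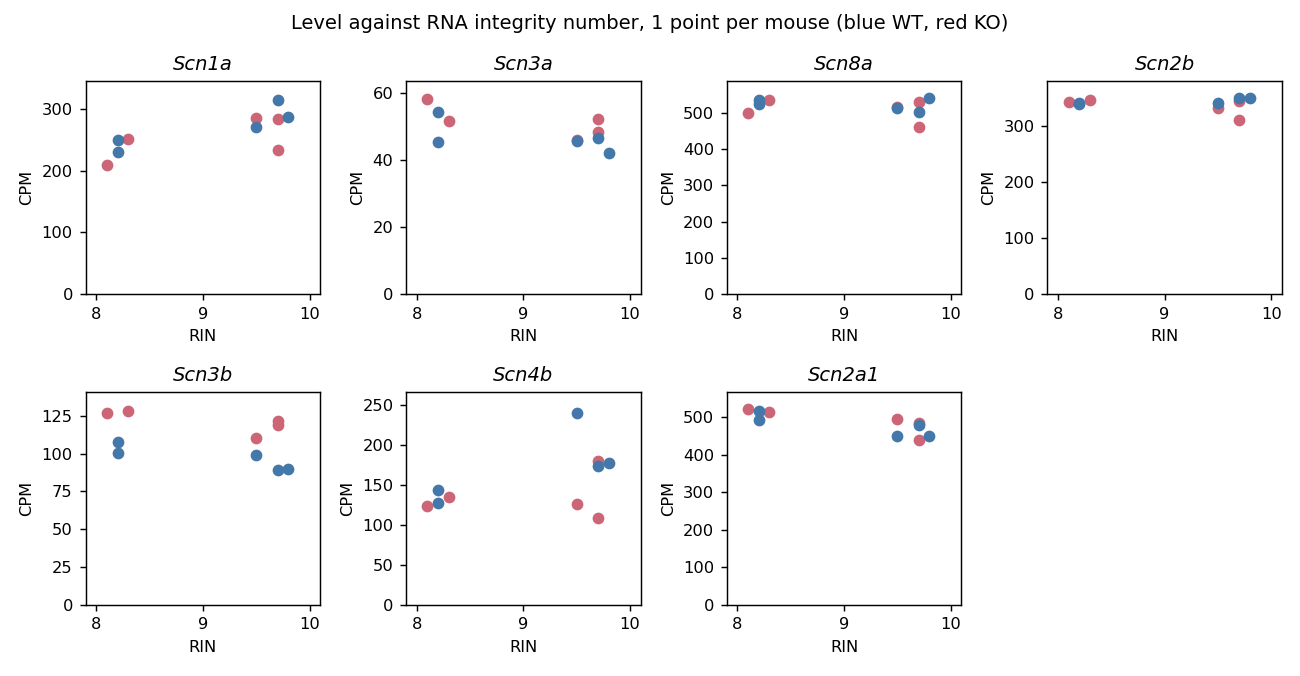
Level of the 6 members and *Scn2a1* in CPM (vertical axes, from 0) against the RIN of the library, 1 point per mouse, WT blue and KO red. *Scn1a* overlaps between the 4 mice of RIN 8.1 to 8.3 and the 6 of 9.5 to 9.8, and the KO points of *Scn3b* lie above the WT points in both.

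After the genotype means were subtracted, the members did not all vary alike over the 10 mice. This comparison was added after the values were seen, with exact permutations of the mice within genotypes and adjustment over 15 pairs, and no pair passed the threshold. *Scn1a* and *Scn3b* gave the strongest relation, with Pearson's r = -0.84 (exact permutation p = 0.00576, adjusted p = 0.0795) and Spearman's rho = -0.85 (exact permutation p = 0.00931). Without KO mouse 5 and WT mouse 3, the 2 farthest from the median *Scn1a* deviation, r was -0.77. Here and below, values of r without 2 mice keep the genotype means of all mice. *Scn1a* against *Scn3a* gave r = -0.80 (exact permutation p = 0.0106, adjusted p = 0.0795) and rho = -0.65 (exact permutation p = 0.0761), and r was -0.48 without the same 2 mice, so that this relation rested on them.

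*Scn3a* against *Scn3b* gave r = 0.77 (exact permutation p = 0.0159, adjusted p = 0.0795) and rho = 0.50 (exact permutation p = 0.192), with r = 0.61 without those 2 mice. *Scn8a* against *Scn2b* gave r = 0.74 (exact permutation p = 0.0786, adjusted p = 0.295) and rho = 0.30 (exact permutation p = 0.462), and r was 0.53 without KO mouse 2 and WT mouse 2. The RIN classes run along the *Scn1a* axis, as 3 of the 4 mice of low RIN were below their genotype mean of *Scn1a* and the mice of high RIN other than KO mouse 2 were above it.

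**Figure D4:**
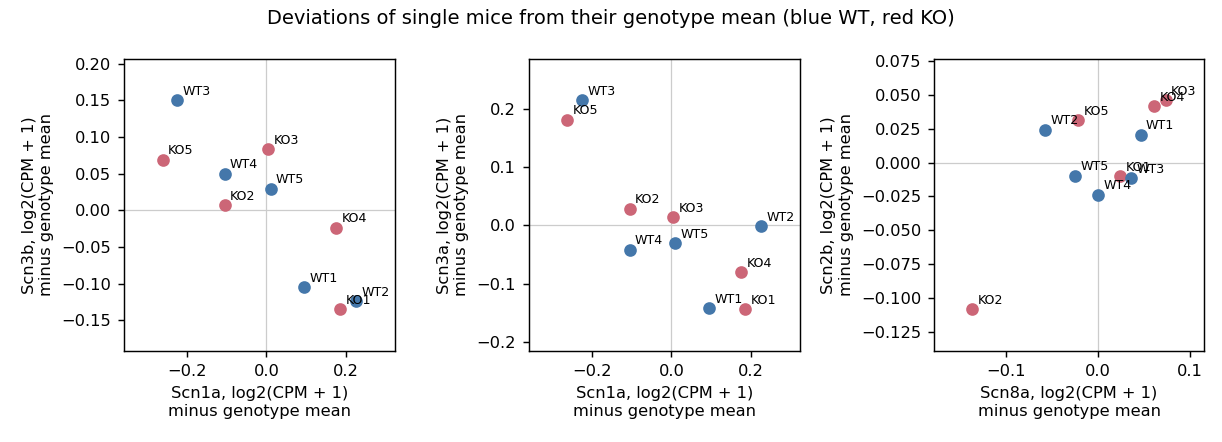
Deviation of each mouse from its genotype mean in log2(CPM + 1), for *Scn3b* against *Scn1a*, *Scn3a* against *Scn1a* and *Scn2b* against *Scn8a*, WT blue and KO red. In the left panel *Scn3b* falls as *Scn1a* rises (r = -0.84), in the middle KO mouse 5 and WT mouse 3 stand apart at the upper left, and at the right KO mouse 2 stands apart at the lower left.

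The members were compared in the same way with marker scores (the mean of log2(CPM + 1) of a list, each gene centred), over 18 relations of the 6 genes with 3 lists (fast-spiking interneurons, striatal medium spiny neurons and oligodendrocytes), and none passed after adjustment. With the fast-spiking score, *Scn1a* gave r = 0.85 (exact permutation p = 0.00479, adjusted p = 0.075), rho = 0.80 (exact permutation p = 0.0192) and r = 0.62 without KO mouse 5 and WT mouse 3. *Scn3b* gave r = -0.78 (exact permutation p = 0.0125, adjusted p = 0.075), rho = -0.80 (exact permutation p = 0.0192) and r = -0.70 without those mice. *Scn3a* gave r = -0.84 (exact permutation p = 0.00931, adjusted p = 0.075), rho = -0.55 (exact permutation p = 0.145) and r = -0.38 without them, so that its relation rested on 2 mice. The lowest fast-spiking scores of each genotype were those of its mice of low RIN. They were -0.22 and -0.11 in KO mice 5 and 3 and -0.07 and 0.03 in WT mice 3 and 4. The permutations took no account of RIN, so relations with this score and the RIN contrast cannot be told apart.

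*Scn4b* gave r = 0.69 with the striatal score (exact permutation p = 0.0599, adjusted p = 0.27), rho = 0.40 (exact permutation p = 0.311) and r = 0.57 without KO mouse 5 and WT mouse 5. With the oligodendrocyte score *Scn4b* gave r = 0.31 (exact permutation p = 0.38, adjusted p = 0.821) and rho = 0.30 (exact permutation p = 0.462), and r was 0.81 without KO mice 1 and 2, so that this relation depended on those mice. The genotype means were not taken again without these 2 KO mice, so r without them may hold an offset between the genotypes. Leaving out KO mice 1 and 2 also moved r from 0.19 to 0.74 for *Scn1a*, from -0.24 to -0.71 for *Scn3b* and from -0.24 to -0.70 for *Scn3a*. The lowest adjusted p with the oligodendrocyte score was 0.344 (*Scn8a*, r = -0.63, exact permutation). The fast-spiking score was 0.07 ± 0.09 (SD, n = 5) in WT and -0.07 ± 0.10 (SD, n = 5) in KO mice, and the striatal score -0.18 ± 0.57 in WT and 0.18 ± 0.38 in KO mice (SD, n = 5 each). None of the 9 fast-spiking and 11 tested striatal markers passed edgeR's threshold between genotypes. All 9 fast-spiking markers had log2 fold changes below 0 (median -0.07, summed level 1114 to 1267 CPM in WT and 1027 to 1171 CPM in KO), and 9 of the 11 striatal markers had values above 0 (median 0.21). Log2 fold changes were also above 0 for 7 of 9 cortical pyramidal markers (median 0.05), which were not scored. They were above 0 for 1 of 6 oligodendrocyte markers (median -0.05), and no marker of these 2 lists passed. No marker was at 0 in all mice. Their part in the *Scn3b* difference was not tested beyond the fit with the striatal score, in which *Scn3b* had a log2 fold change of 0.31.

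The tested genes most like each member over the 10 mice, by Pearson's r of log2(CPM + 1) after the genotype means were subtracted, are given as a description. Each point is 1 mouse, whose genes share a library with its depth and RIN. The values of r are the highest over all tested genes in 10 mice, and how high they would run by chance was not tested. The 5 genes nearest to *Scn3b* were *Crym* (r = 0.949), which encodes a thyroid hormone-binding crystallin, *Celf5* (0.933), *Cyb561a3* (0.932), *Fndc9* (0.929) and *Ryr1* (0.927), which encodes a ryanodine receptor. *Crym* was at 53.7 ± 11.7 CPM in WT and 74.4 ± 14.0 CPM in KO mice (SD, n = 5 each) and did not pass between genotypes (log2 fold change 0.27, adjusted p = 0.129 in edgeR). *Fndc9* had a log2 fold change of -0.56, the opposite sign to *Scn3b*. *Scn4b* was nearest to *Rasd2* (0.967), *Fam83d* (0.957) and *Eif3i* (0.938), and *Rasd2* is one of the striatal markers.

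The 3 genes nearest to *Scn1a* were *Tmod1* (0.974), *Lamp5* (0.970) and *Camk2n1* (0.968), the last an inhibitor of the calcium/calmodulin kinase of synapses. *Scn3a* was nearest to *Aldh1a7*, *Plekha7* and *Stag3* (0.927 to 0.944), of which *Aldh1a7* and *Stag3* had under 2 CPM. *Scn8a* was nearest to *Dhx8*, *Bok* and *Diras2* (0.950 to 0.963). *Scn2b* was nearest to *Smc1a*, *Galntl6* and *Gabrb2* (0.913 to 0.923), the last a GABA-A receptor subunit.

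Other genes of the sodium channel pathway were taken from lists. These were set with earlier results of these data known, so their tests are not free of that choice. They hold 59 genes reported here, of which 57 were tested. Of these, 1 was higher in KO (1.75%, against 0.6% of all tested genes called higher) and 0 lower (against 0.244%) in edgeR's test, with 11 at an unadjusted p under 0.05 (10.6% of all tested genes were). DESeq2 called 2 of the list genes, 1 of them higher in KO and the other lower, and 233 genes in all. The median log2 fold change was 0.01, against -0.00 over all tested genes.

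The gene that passed, *Fgf13*, encodes an intracellular fibroblast growth factor homologue that binds the carboxy-terminal tail of sodium channel alpha subunits. It was at 140.7, 141.4, 141.0, 145.0 and 136.0 CPM in WT mice 1 to 5 and at 161.2, 159.5, 159.8, 158.2 and 166.2 CPM in KO mice 1 to 5. The genotypes did not overlap (as for 1.58% of tested genes), and the spread within each was small. The log2 fold change of *Fgf13* was 0.19 (SE 0.03, adjusted p = 0.013 in edgeR's test), and over 20 alternatives it ran from 0.17 to 0.20, with the call in 13 and adjusted p-values from 0.000155 to 0.308. The gene lies on chromosome X, and KO mouse 3 had 1 count over 4 Y-linked genes. Without KO mouse 3 the log2 fold change of *Fgf13* was 0.19 (adjusted p = 0.0522 in edgeR's test). The call was also lost without KO mouse 1, WT mouse 3 or WT mouse 5. *Fgf11*, *Fgf12* and *Fgf14*, the other genes of this subfamily, had log2 fold changes of -0.14, -0.07 and -0.05, and none passed (adjusted p = 0.651, 0.556 and 0.779).

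None of the 5 tested genes among 7 other alpha subunits passed, and *Scn4a* and *Scn11a* were below the filter. *Scn2a1* was at 477.0 ± 28.6 CPM in WT and 490.3 ± 33.1 CPM in KO mice (SD, n = 5 each). Its fold change on the log2 scale was 0.03 (adjusted p = 0.858). *Scn7a*, which encodes a sodium channel that is not opened by voltage, had a log2 fold change of -0.60 (SE 0.16, adjusted p = 0.108) at 4.66 CPM in WT mice. Among 11 genes of the scaffold of the initial segment and nodes, *Sptan1* and *Ank3*, which encodes the anchor ankyrin-G, gave 0.07 and 0.09 (adjusted p = 0.343 and 0.263).

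*Kcnab2*, which encodes an auxiliary subunit of potassium channels, gave a log2 fold change of 0.02 (adjusted p = 0.905). *Calm2*, which encodes the calmodulin that binds the channels, gave 0.03 (adjusted p = 0.836), and *Atp1b1*, which encodes a sodium pump subunit, gave -0.05 (adjusted p = 0.62). *Bace1* and *Adam10*, whose proteases cut beta subunits, gave -0.02 and 0.04 (adjusted p = 0.932 and 0.823), and 0 of the 7 processing enzymes passed. The splicing regulators *Rbfox2* and *Rbfox1* gave 0.06 and 0.08 (adjusted p = 0.603 and 0.466), and *Unc80* and *Nalcn*, of the sodium leak channel, gave -0.04 and -0.07 (adjusted p = 0.735 and 0.577).

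All 3 beta subunit members lie on the chromosome of *Zbtb16*, at 8.36 Mb (*Scn3b*), 3.52 Mb (*Scn2b*) and 3.50 Mb (*Scn4b*) from it, on the side towards the start of the chromosome. Within 4 Mb of *Zbtb16*, 5 of 56 tested genes passed between genotypes (8.93%, against 0.844% of all tested genes). Within 8.5 Mb, a window set to reach *Scn3b* that also holds the genes within 4 Mb, 6 of 135 did (4.44%). The sixth was *Scn3b*, which this contrast chose, and nothing is read from this share. The other 5, all within 4 Mb and named after their values were seen, were *Phldb1*, *Nxpe4*, *Zw10*, *Ttc12* and *Dlat*. The extent of C3 DNA around *lu* is not given in the sources used here, and a difference at the *Zbtb16* locus and one in linked DNA cannot be told apart for these 3 genes.

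**Figure D5:**
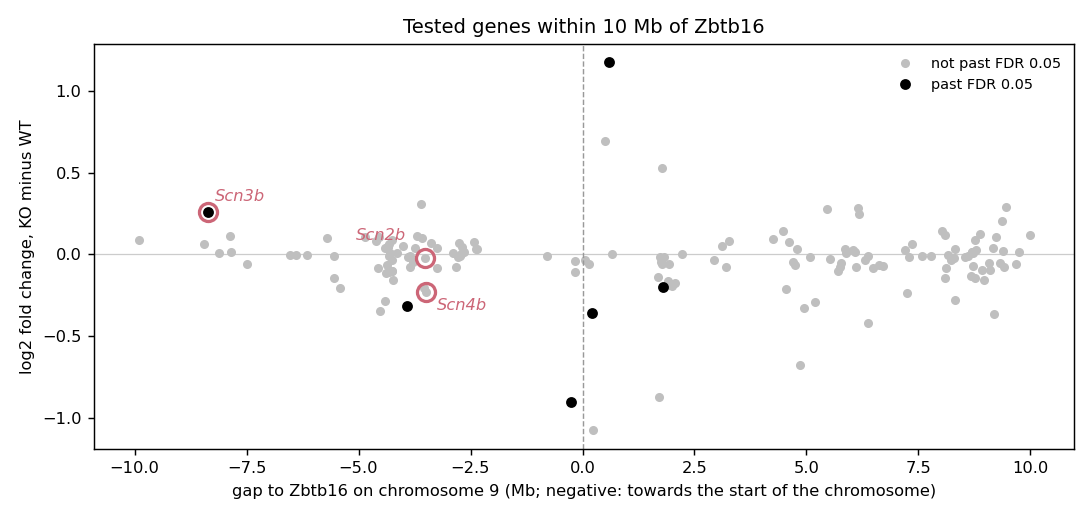
Log2 fold change, KO minus WT, of tested genes near *Zbtb16* on chromosome 9 (vertical axis) against their gap to *Zbtb16* (horizontal axis, dashed line at *Zbtb16*). Gaps run from -9.91 to 9.99 Mb, negative towards the start of the chromosome. Genes past the threshold are black and the 3 beta subunit members circled. *Scn3b* lies at -8.36 Mb with 0.26, beyond the 5 black points within 4 Mb. *Scn2b* and *Scn4b* lie together near -3.5 Mb with -0.02 and -0.23.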

How the data were processed

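The authors aligned the stranded paired-end reads to mm10 with STAR 2.7.1a, kept uniquely mapped reads and counted them on exons of Gencode M21 protein-coding genes with HTSeq 0.9.1, intersection-strict. The deposited values are these raw counts for 22000 genes in 10 libraries, 1 per mouse. Strand settings are not given in the sources used here. Groups, replicate numbers and RIN come from the labels.

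Counts were tested with edgeR 4.0.16 in R 4.3.3 (quasi-likelihood, TMM, its filter on low counts, Benjamini-Hochberg adjustment, threshold 0.05). The genotype model held 3 surrogate variables that sva 3.50.0 derived from log2(CPM + 1) values. Low and high RIN were compared with genotype as covariate. Printed CPM use TMM library sizes. Floors of 3 counts cover counting error only. The code was tested on simulated counts. Positions matched 19550 genes by symbol and 243 by synonym (*Scn2a* is listed as *Scn2a1*), and 2207 had none. *Drd1* was not analysed here, and some list genes are not reported here and are left out of the list counts. Alternatives used DESeq2 1.42.0, limma 3.58.1, other covariates, normalization and filters, and left out each mouse. Values were handled with scipy 1.17.1, pandas 2.3.3 and numpy 2.4.6 in Python 3.11.15, and figures drawn with matplotlib 3.10.9.

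The members, lists and the rule for named genes were chosen with earlier results of these data known. Named genes were the members, *Zbtb16*, list genes past the threshold, the 2 highest of each list, and the genes most like each member (5 for *Scn3b*, 3 for the others). Correlations among members and with marker scores, subunit shares, the promoter comparison and the chromosome 9 windows were added after the values were seen.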

Additional observations from a re-analysis of the deposited data

Results flagged for a closer look

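In each group of 5 mice the highest and lowest values of the named sodium channel genes were compared with the rest by Dixon's ratio. Of 42 groups of values, 3 held an outlying mouse, and chance gives about 1 in 20. None of the 6 members was among them. *Calm2* was at 1767 CPM in WT mouse 2, against 1608 to 1634 CPM in the other WT mice. The same mouse had the highest WT level of *Atp1b1*, 1998 against 1799 to 1852 CPM. KO mouse 5 was lowest for *Unc80*, 342.9 against 404.5 to 413.1 CPM.

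A test of whether the effect of RIN differed between the genotypes (edgeR, interaction term) passed for none of the 6 members and *Fgf13*, with *Scn4b* at the lowest unadjusted value (log2 difference of differences 0.44, SE 0.24, adjusted p = 0.996).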

How the results depend on the processing

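The number of genes past the threshold between genotypes, 121, was 30 without surrogate variables, 34 with 1, 38 with RIN as covariate, 9 with the striatal score, 24 with a replicate block, 233 with DESeq2 and 1 in mice of high RIN alone. Leaving out 1 mouse gave 39 (WT mouse 3) to 248 (KO mouse 2), with 59, 54 and 65 without KO mouse 1, KO mouse 3 and WT mouse 4. List genes past it, 1, were 0 with the striatal score, the replicate block or high RIN alone, 2 with DESeq2, and 0 to 2 with 1 mouse left out (0 without KO mouse 1, KO mouse 3 or WT mouse 3, and 2 without KO mouse 5 or WT mouse 2). Where 2 list genes passed, 1 was higher in KO and the other lower. Without WT mouse 5 the 1 list gene that passed was lower in KO. For RIN the count of 48 was 121 without the filter, 269 with DESeq2, and 1 (without WT mouse 3) to 73 (without KO mouse 2 or KO mouse 3) with 1 mouse left out, with 31, 24, 22, 10, 10 and 21 without KO mouse 1, KO mouse 4, WT mouse 1, WT mouse 2, WT mouse 4 and WT mouse 5.

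With the longest transcript as length, *Scn4b* was below *Scn1a* by a log2 difference of -0.0434, *Scn8a* above *Scn4b* by 0.59, and *Scn2b* above *Scn8a* by 0.69. With 1 mouse left out, *Scn8a* above *Scn4b* ran from 0.0900 to 0.20 and *Scn1a* above *Scn3b* from 0.17 to 0.29. The RIN difference of *Scn2b* ran from -0.00578 (without KO mouse 2) to 0.0283 with 1 mouse left out, and its genotype value was -0.07 in high RIN alone. The cause of these changes was not tested. Replicate numbers join different mice and did not deviate together (correlations -0.11 to 0.17). Under the replicate block *Scn3b* had a log2 fold change of 0.32. Scaling by DESeq2's size factors in edgeR (RLE), limma and no filter kept the genotype count between 123 and 140.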
